A study of Homo sapiens with 24 samples.

Results

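The genes described here are 10 members of the AP-1 and immediate early response: the FOS family (FOS, FOSB, FOSL1, FOSL2), the JUN family (JUN, JUNB, JUND) and 3 further early genes (EGR1, IER2, DUSP1). They were taken by gene symbol from a table of 28307 genes, and all 10 were found and passed the filter on low counts in both cell lines. The table holds total RNA sequencing of 2 human cancer cell lines, SUM159 (a mesenchymal-like, triple-negative breast cancer line) and SW620 (a colon cancer line derived from a lymph node metastasis). Each line was exposed for 30 h to nifuroxazide (NIF, a nitrofuran antibiotic) or to its vehicle DMSO and sorted by the ALDEFLUOR assay into cells of high (ALDHbr) and low (ALDHneg) aldehyde dehydrogenase activity, with 3 libraries for each of the 8 combinations, 24 in all. In the study ALDHbr cells stand for the stem-like fraction of a line, and the RNA of NIF-treated and control ALDHbr cells was compared.

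Immediate early genes are switched on within minutes of a growth factor, stress or damage signal, without new protein synthesis, mostly through MAP kinases acting on transcription factors already bound at their promoters. FOS proteins pair with JUN proteins to form AP-1, which binds the TPA response element in the promoters of proteases, cytokines and cell cycle genes; FOSL1 and FOSL2 lack the strong activation domain of FOS and FOSB and are the forms that last in invasive carcinoma cells. EGR1 is a zinc finger factor, IER2 a short-lived nuclear protein, and DUSP1 the phosphatase that removes phosphate from p38, JNK and ERK and so closes the loop.

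Total counts per library ran from 30253187 to 43127948. Marker genes fitted the labels of the lines: 10 colon epithelial markers summed to between 13038 and 16856 CPM (read counts scaled to a common library size) in SW620 libraries and between 484 and 759 in SUM159 libraries, and 10 mesenchymal markers to between 6392 and 8590 CPM in SUM159 and between 8.00 and 37.7 CPM in SW620. ALDH1A1, an aldehyde dehydrogenase (the enzyme activity that the sort reads), reached at least 96.6 CPM in SUM159 ALDHbr libraries and at most 0.600 CPM in SUM159 ALDHneg libraries. In SW620 the sorted fractions were closer, with ALDH1A1 between 936 and 978 CPM in ALDHneg and between 1338 and 1429 CPM in ALDHbr cells under DMSO. Under NIF it was lower in both SW620 fractions, between 572 and 599 CPM in ALDHneg and between 977 and 1045 CPM in ALDHbr cells. A total RNA library reads a mixture, so fewer cells with a transcript and less of it per cell cannot be told apart. The labels call the replicates independent biological replicates.

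Under DMSO the order of the 10 members by RNA level differed between the lines. So did most genes: in ALDHbr cells 81.3% of all genes tested were called between the lines, against 5 members higher and 1 lower in SUM159. Levels between genes are compared as CPM per kilobase of transcript, with all 24 libraries scaled together. In SUM159 ALDHbr cells FOSL1 was the most abundant member, at 178 ± 34.4 CPM per kilobase (SD, n = 3), followed by DUSP1 at 90.4 ± 3.55 and JUNB at 63.9 ± 7.14, each with a range clear of the next. JUN (43.7 ± 8.23), JUND (43.4 ± 1.72), IER2 (36.3 ± 8.05), FOSL2 (26.9 ± 1.94) and EGR1 (22.3 ± 8.40) followed, each overlapping its neighbour in that order, and FOS (7.84 ± 2.84) and FOSB (6.93 ± 3.29) came last.

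In SW620 ALDHbr cells under DMSO the JUN family led instead. JUND, the member that resting cells hold steadily, stood at 57.4 ± 4.85 CPM per kilobase and JUNB at 55.3 ± 6.18, and the ranges of these neighbours overlapped. IER2 (41.7 ± 3.44) and FOSL1 (41.6 ± 1.18) were also not separated by their spread, JUN reached 36.8 ± 1.15, and EGR1 (12.6 ± 0.749), FOS (11.4 ± 0.680) and FOSL2 (9.98 ± 1.42) formed an overlapping run. DUSP1, second in SUM159, was ninth here at 3.70 ± 0.263, just above FOSB at 3.14 ± 0.246 CPM per kilobase.

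**Figure D1:**
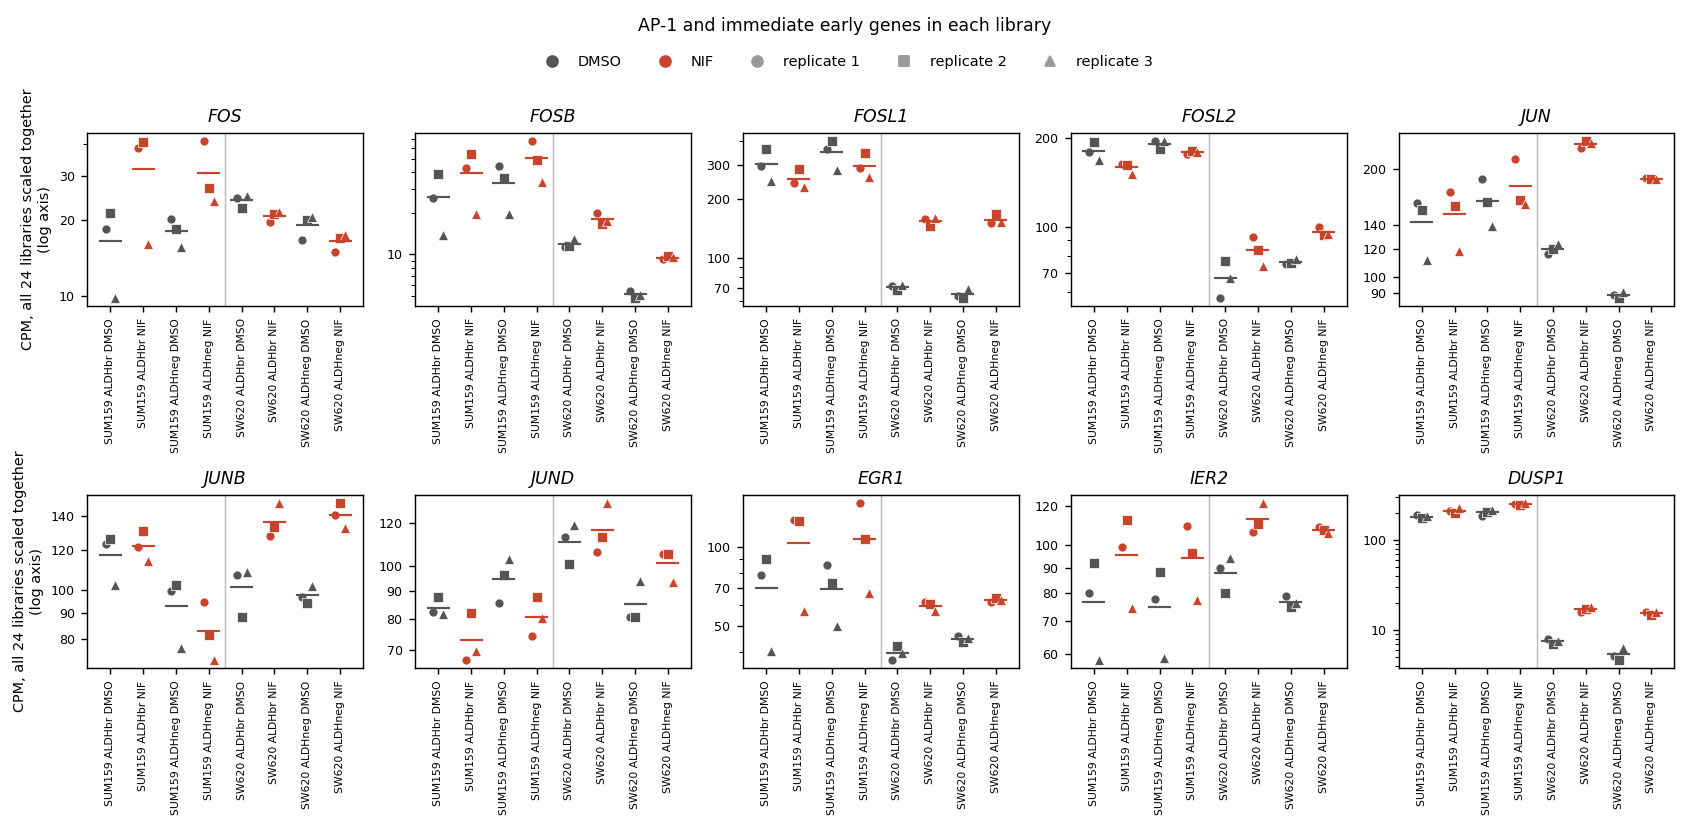
CPM on a log axis (all 24 libraries scaled together) for each of the 10 genes in the 8 groups; points are libraries, shaped by replicate number and coloured by treatment, and bars are group means. FOSL1, FOSL2 and DUSP1 sit higher in every SUM159 library than in any SW620 library, and replicate 3 of SUM159 sits lowest for FOS, FOSB, EGR1 and IER2.

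As a share of the FOS family per kilobase, FOSL1 made up 81.0% ± 0.562 in SUM159 ALDHbr and 63.0% ± 1.39 in SW620 ALDHbr cells under DMSO. FOS itself made up 3.49% ± 0.781 of the family in SUM159 and 17.2% ± 0.859 in SW620. The JUN family was more even: JUNB held 42.3% ± 0.261 of it in SUM159 and 36.9% ± 1.59 in SW620, and JUND 28.9% ± 2.69 and 38.4% ± 0.375. The summed JUN family was at a similar level in both lines, 151 ± 16.3 and 149.5 ± 11.3 CPM per kilobase, while the summed FOS family stood at 219.6 ± 42.3 in SUM159 and 66.1 ± 1.50 in SW620.

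**Figure D2:**
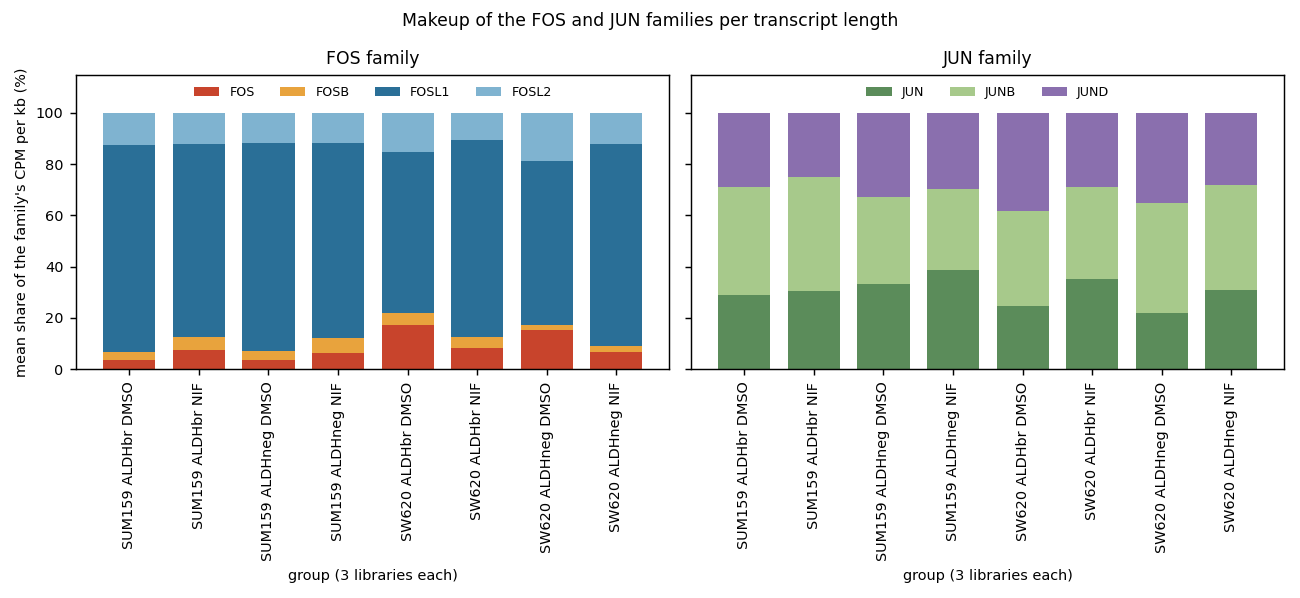
Mean share (%) of each gene in the summed CPM per kilobase of the FOS family (left) and of the JUN family (right) in the 8 groups of 3 libraries. FOSL1 is the largest part of the FOS family in every group, at 63.0% under DMSO and 77.1% under NIF in SW620 ALDHbr cells and at 81.0% and 75.4% in SUM159 ALDHbr cells.

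The direct comparison of the lines under DMSO in ALDHbr cells placed 5 members higher in SUM159 and 1 lower. Of all genes tested, 41.7% were called higher and 39.6% lower in SUM159, against 5 and 1 of the 10 members. DUSP1 was at 182 ± 7.14 CPM in SUM159 and 7.45 ± 0.530 in SW620, a log2 difference of 4.61 ± 0.09 (SE, edgeR adjusted p = 3.00e-23). FOSL1 stood at 303 against 70.8 CPM (2.10 ± 0.13), FOSL2 at 181 against 67.0 CPM (1.43 ± 0.08), FOSB at 26.1 against 11.9 CPM (1.13 ± 0.33) and EGR1 at 69.8 against 39.5 CPM (0.82 ± 0.28). JUND was the member lower in SUM159, at 83.7 ± 3.31 against 111 ± 9.36 CPM (log2 difference -0.41 ± 0.09, adjusted p = 0.000363). FOS, JUN, JUNB and IER2 did not pass the test, with log2 differences of -0.54, 0.25, 0.21 and -0.20. The median of all genes lay at 0.05 in this comparison and at 0.20 when libraries were scaled by their total counts alone, and FOSB (0.74, adjusted p = 0.0502) and EGR1 (0.59, adjusted p = 0.0721) lost their calls when SUM159 DMSO replicate 2 was left out.

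In SW620 most of the AP-1 and immediate early genes rose under NIF; FOS was called in neither fraction and JUND not in ALDHbr cells. In ALDHbr cells 8 of the 10 members rose and none fell, where 21.4% of all genes tested were called higher and 21.9% lower. In ALDHneg cells 9 of 10 rose and none fell, where 22.3% of genes were called higher and 22.7% lower; by total-count scaling the share of higher genes among those called in ALDHneg cells moved from 49.5% to 39.4%. The median log2 fold change of the 10 members was 0.51 in ALDHbr and 0.50 in ALDHneg cells, and that of all genes tested -0.01 in each.

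The members that rose most were FOSL1, JUN and DUSP1. FOSL1, in ALDHbr cells, measured 67.3, 64.2 and 68.2 CPM under DMSO and 149, 138 and 151 CPM under NIF. FOSL1, in ALDHneg cells, measured 59.5, 58.7 and 65.2 CPM under DMSO and 141, 157 and 142 CPM under NIF. Every NIF library of FOSL1 thus lay above every DMSO library of its fraction, by a log2 fold change of 1.13 ± 0.06 (adjusted p = 5.95e-09) in ALDHbr and 1.26 ± 0.06 (adjusted p = 1.58e-09) in ALDHneg cells.

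JUN, the founding partner of FOS in AP-1, had the tightest replicates of all members. It went from 109.6, 112 and 117 CPM to 216, 227 and 222 CPM in ALDHbr cells, and from 83.6, 82.5 and 85.6 CPM to 177, 176 and 176 CPM in ALDHneg cells. The groups stood far apart, with log2 fold changes of 0.97 ± 0.05 (adjusted p = 1.19e-09) and 1.07 ± 0.05 (adjusted p = 3.61e-10). DUSP1, the phosphatase of the group, was low in this line and went from 7.51, 6.47 and 7.03 CPM to 14.8, 16.1 and 16.8 CPM in ALDHbr and from 4.83, 4.36 and 5.95 CPM to 14.7, 13.6 and 14.8 CPM in ALDHneg cells. Its groups did not overlap in either fraction, and its log2 fold changes were 1.18 ± 0.10 (adjusted p = 5.71e-07) and 1.51 ± 0.11 (adjusted p = 5.45e-08).

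The remaining members rose by less. FOSB, the low-abundance relative of FOS, went from 11.2 ± 0.889 to 16.9 ± 1.68 CPM in ALDHbr cells (log2 fold change 0.60 ± 0.09) and from 4.81 ± 0.282 to 8.87 ± 0.233 CPM in ALDHneg cells (0.88 ± 0.10). EGR1 rose by 0.60 ± 0.06 and 0.48 ± 0.06 in the same order, JUNB by 0.43 ± 0.08 and 0.52 ± 0.08, and IER2 by 0.36 ± 0.07 and 0.48 ± 0.07, in every case with NIF and DMSO libraries apart. FOSL2 rose by 0.31 ± 0.09 (adjusted p = 0.0152) in ALDHbr cells, where its libraries overlapped, and by 0.33 ± 0.09 (adjusted p = 0.0103) in ALDHneg cells, where they did not. The ALDHbr call of FOSL2 was lost when NIF replicate 1 (0.24) or DMSO replicate 1 (0.21) was left out. JUND had a log2 fold change of 0.07 ± 0.09 in ALDHbr cells (adjusted p = 0.566) and of 0.24 ± 0.09 (adjusted p = 0.0387) in ALDHneg cells, and that call was lost without replicate 1 or 2 of either treatment (0.21 to 0.22) and by total-count scaling (0.18).

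FOS did not follow its family in SW620. It measured 23.1, 20.9 and 23.5 CPM under DMSO and 18.3, 19.9 and 20.2 CPM under NIF in ALDHbr cells. In ALDHneg cells it measured 15.7, 18.9 and 19.3 CPM under DMSO and 13.9, 15.9 and 16.3 CPM under NIF. All 3 NIF libraries lay below all DMSO libraries in ALDHbr cells, whereas the ranges overlapped in ALDHneg cells, and the log2 fold changes of -0.21 ± 0.09 (adjusted p = 0.0741) and -0.22 ± 0.09 (adjusted p = 0.0629) did not pass the test. By total-count scaling FOS was called lower in both fractions (-0.24, adjusted p = 0.0380, and -0.28, adjusted p = 0.0179). With the replicate number as a block FOS was called lower in ALDHneg cells (-0.22, adjusted p = 0.0450) but not in ALDHbr cells (-0.21, adjusted p = 0.0520). With FOSL1 up and FOS not, the share of FOS in its family per kilobase was 17.2% ± 0.859 under DMSO and 8.35% ± 0.647 under NIF in ALDHbr cells, and 15.1% ± 1.27 and 6.68% ± 0.504 in ALDHneg cells, with no overlap between treatments. JUN, in turn, went from 24.7% ± 1.84 to 35.0% ± 1.85 of the JUN family in ALDHbr and from 22.0% ± 0.733 to 30.9% ± 1.27 in ALDHneg cells.

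In SUM159 the same genes varied strongly between replicates of one group. The SD of log2 CPM within groups was 0.53 for FOS, 0.66 for FOSB and 0.57 for EGR1, against a median of 0.13 over all genes, and each of these values exceeded 99.9% of the genes of similar level. In SW620 the SDs of the 3 genes were 0.12, 0.10 and 0.06, against a median of 0.12. FOSL2 (0.07) and DUSP1 (0.08), in contrast, were below the median of all genes in SUM159.

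**Figure D3:**
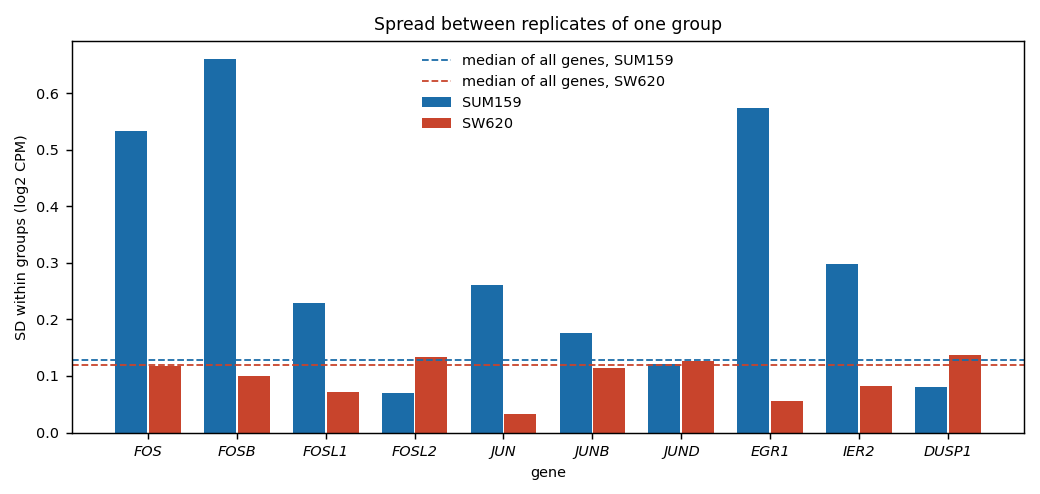
SD of log2 CPM between replicates within groups for each gene in SUM159 and SW620 (bars), with the median over all genes tested in each line (dashed lines, 0.13 and 0.12). FOS, FOSB and EGR1 reach 0.53, 0.66 and 0.57 in SUM159 and stay at or below 0.12 in SW620.

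The spread followed the replicate number. EGR1 under DMSO measured 84.1, 96.4 and 42.8 CPM in replicates 1, 2 and 3 of ALDHbr cells and 91.4, 77.6 and 53.5 CPM in those of ALDHneg cells. Under NIF it measured 135, 134 and 60.7 CPM in ALDHbr and 158, 114 and 71.6 CPM in ALDHneg cells. Replicate 3 was thus the lowest of its group in all 4 groups, as it also was for FOS, FOSB, FOSL1, JUN, JUNB and IER2. After removal of the group means, EGR1 correlated over the 12 SUM159 libraries with FOS at r = 0.95, with FOSB at r = 0.97, with JUN at r = 0.93 and with IER2 at r = 0.94 (a description, since libraries with the same number deviated together). In SW620 the corresponding values were -0.36, 0.37, 0.21 and -0.67.

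The promoters of FOS, FOSB, EGR1 and DUSP1 are shown as the 250 bases before the transcription start (RefSeq, GRCh38.p14). FOS, FOSB and EGR1 were among the genes that moved together between SUM159 replicates. DUSP1 moved the other way, with r = -0.55, -0.77 and -0.66 to these genes after removal of the group means. They were searched on both strands for the CArG box of serum response factor, the cAMP response element TGACGTCA and its core TGACG (which lies within it), the AP-1 site TGANTCA and the STAT site TTCNNNGAA, and every match is in capitals.
FOS, chr14:75278578-75278827, plus strand: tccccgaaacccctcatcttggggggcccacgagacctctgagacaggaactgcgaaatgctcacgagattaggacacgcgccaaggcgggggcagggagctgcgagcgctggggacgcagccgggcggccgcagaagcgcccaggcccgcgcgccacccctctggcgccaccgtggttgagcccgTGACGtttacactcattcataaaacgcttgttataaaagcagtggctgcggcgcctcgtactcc
FOSB, chr19:45467746-45467995, plus strand: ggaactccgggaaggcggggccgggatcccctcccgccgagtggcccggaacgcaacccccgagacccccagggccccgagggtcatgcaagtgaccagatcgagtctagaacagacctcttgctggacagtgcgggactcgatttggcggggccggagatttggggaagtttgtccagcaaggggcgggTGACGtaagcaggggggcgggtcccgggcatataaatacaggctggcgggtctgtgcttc
EGR1, chr5:138465229-138465478, plus strand: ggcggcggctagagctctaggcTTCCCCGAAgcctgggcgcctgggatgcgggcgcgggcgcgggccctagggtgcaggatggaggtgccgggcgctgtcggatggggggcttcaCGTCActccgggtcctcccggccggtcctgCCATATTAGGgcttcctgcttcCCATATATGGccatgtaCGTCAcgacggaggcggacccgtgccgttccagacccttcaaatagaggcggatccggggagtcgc
DUSP1, chr5:172771196-172771445, minus strand: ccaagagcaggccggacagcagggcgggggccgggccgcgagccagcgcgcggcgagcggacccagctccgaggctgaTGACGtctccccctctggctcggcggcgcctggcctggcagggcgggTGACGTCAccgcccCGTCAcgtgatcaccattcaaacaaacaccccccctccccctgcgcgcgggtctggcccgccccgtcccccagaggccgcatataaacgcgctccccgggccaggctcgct
EGR1 held 2 CArG boxes, which begin 105 and 83 bases before the start, and a STAT site that begins 228 bases before it. FOSL1 had no entry in the promoter table and was not searched. None of the other 8 members searched held a CArG box in this window, which 1.16% of 35116 promoters of the same length do. None of the 9 searched held an exact TGANTCA, found in 6.57%. Variants of these sites and bases further upstream were not searched, so a site with other letters or outside the window would be missed. FOS and FOSB held a core TGACG at nearly the same place, beginning 64 and 60 bases before the start. The core occurred in all 9 members with an entry in the promoter table and in 21.2% of all promoters. The full cAMP response element was present in DUSP1, beginning 125 bases before the start, and in JUND, and in 1.65% of all promoters. A match describes the letters of the window and is no evidence of binding.

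When the SUM159 libraries were treated as unpaired, the spread left little to call. In ALDHbr cells 0 of 10 members passed the edgeR test between NIF and DMSO, where 3.16% of all genes did (0.936% higher and 2.23% lower); 4 members had an unadjusted p under 0.05, and DESeq2 called 1 (DUSP1). In ALDHneg cells 1 member, DUSP1, passed (log2 fold change 0.31 ± 0.07, adjusted p = 0.0183), where 1.10% of genes were called higher and 2.20% lower, and this call was lost without NIF replicate 1, NIF replicate 3 or DMSO replicate 1 (0.25 to 0.31).

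Across all genes, SUM159 libraries with the same replicate number deviated together from their group means in each of the 18 pairs of groups and numbers compared (r from 0.13 to 0.45), so that the numbers pair the libraries of this line. With the replicate number as a block, 8 members passed in ALDHbr cells: 5 rose, where 5.77% of all genes did, and 3 fell, where 7.56% did. In ALDHneg cells 5 rose, where 6.10% of genes did, and 2 fell, where 7.08% did. The members that rose were FOS, FOSB, EGR1, IER2 and DUSP1 in each fraction, and those that fell were FOSL1 and JUND in each and FOSL2 in ALDHbr cells.

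FOS showed the largest change. In ALDHbr cells it measured 19.6, 22.7 and 10.4 CPM in replicates 1, 2 and 3 under DMSO and 41.2, 43.5 and 17.0 CPM under NIF. In ALDHneg cells it measured 21.6, 19.5 and 16.8 CPM under DMSO and 44.1, 28.4 and 25.4 CPM under NIF. Each NIF library exceeded the DMSO library of its number, although the ALDHbr groups as wholes overlapped, and the blocked log2 fold changes were 0.92 ± 0.16 (adjusted p = 0.000393) and 0.74 ± 0.16 (adjusted p = 0.00268).

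EGR1, whose values are given above, was higher under NIF in each of the 3 pairs of both fractions, with blocked log2 fold changes of 0.55 ± 0.10 (adjusted p = 0.000423) and 0.59 ± 0.09 (adjusted p = 0.000208). FOSB went from 27.6, 41.2 and 14.8 to 45.6, 58.0 and 21.0 CPM in ALDHbr and from 46.9, 38.3 and 21.2 to 72.2, 51.9 and 36.3 CPM in ALDHneg cells. It was likewise higher in every pair while the groups overlapped, by 0.57 ± 0.14 and 0.62 ± 0.13. IER2 rose by 0.31 ± 0.06 and 0.34 ± 0.06 and DUSP1 by 0.22 ± 0.05 and 0.31 ± 0.05, again in 3 of 3 pairs in each fraction.

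FOSL1, the most abundant member, went the other way. It measured 315, 388 and 264 CPM under DMSO and 259, 306 and 246 CPM under NIF in ALDHbr cells, and 389, 425 and 302 CPM and 308, 366 and 278 CPM in ALDHneg cells. All 6 pairs were lower under NIF, with blocked log2 fold changes of -0.25 ± 0.05 (adjusted p = 0.00248) and -0.23 ± 0.05 (adjusted p = 0.00436). JUND, the steady JUN protein, fell by 0.21 ± 0.06 and by 0.24 ± 0.06 on the log2 scale, and FOSL2 by 0.18 ± 0.05 in ALDHbr cells; in ALDHneg cells FOSL2 had a log2 fold change of -0.10 ± 0.05 (adjusted p = 0.226). JUN (0.07 ± 0.06 and 0.14 ± 0.06) and JUNB (0.06 ± 0.06 and -0.16 ± 0.06) did not pass in either fraction.

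Leaving out all libraries of 1 replicate number at a time, a check chosen after the data were seen, kept the blocked call of EGR1 in both fractions each time. FOS kept its call in ALDHbr cells each time but lost it in ALDHneg cells without replicate 1 (0.57, adjusted p = 0.111). Other members that rose lost calls as well. These were FOSB in ALDHbr cells without replicate 1, DUSP1 in ALDHbr cells without replicate 3 and IER2 in ALDHneg cells without replicate 1. The members that fell lost calls too: FOSL1 in ALDHbr cells without replicate 2 (-0.20, adjusted p = 0.0503) and in ALDHneg cells without replicate 1 (-0.17, adjusted p = 0.151), JUND in each fraction without replicate 1 or replicate 3 (-0.25 to -0.16), and FOSL2 in ALDHbr cells without replicate 1 (-0.21) or 2 (-0.15). Without replicate 1, 2 and 3 the number of members called was 5, 6 and 6 in ALDHbr cells. Of all genes tested, 887 of 14822, 1336 of 15300 and 1123 of 14975 were called there. In ALDHneg cells 3, 8 and 6 members were called, where 650 of 14822, 1913 of 15300 and 968 of 14975 genes were. Without replicate 3, the replicate with low early genes, 6 members were called in each fraction, FOS, FOSB, FOSL1, EGR1 and IER2 among them in both.

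**Figure D4:**
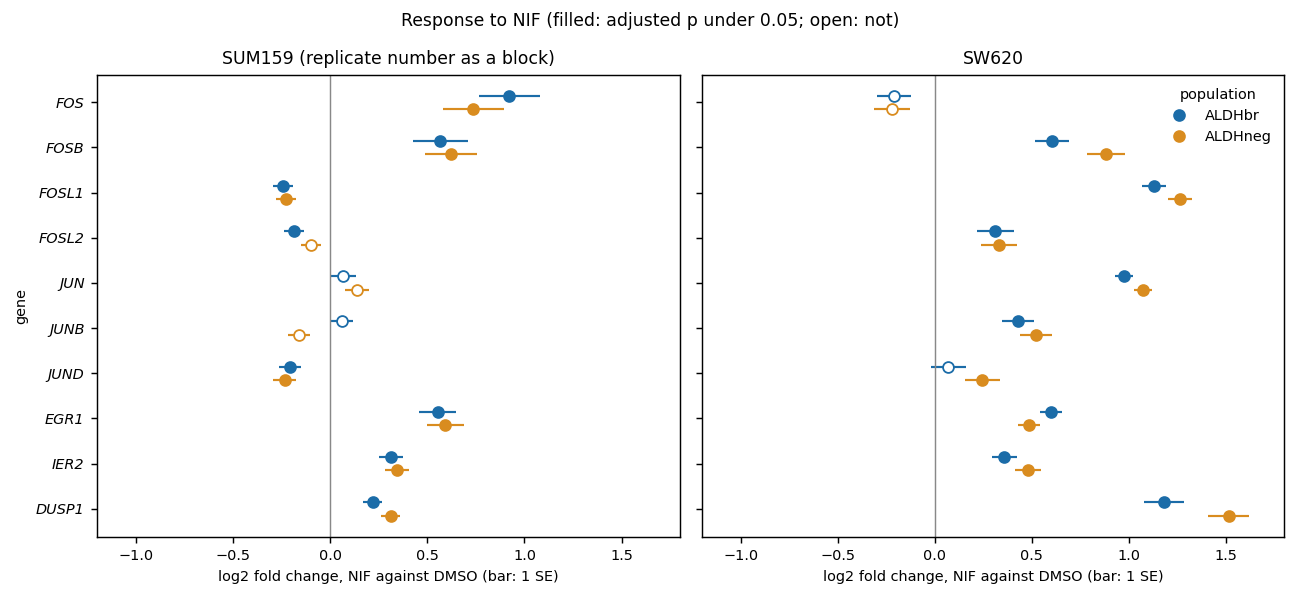
Log2 fold change (NIF against DMSO, bar: 1 SE) of each gene in ALDHbr and ALDHneg cells of SUM159 (replicate number as a block) and SW620 (no block); filled points have an adjusted p under 0.05. FOS stands at 0.92 and 0.74 in SUM159 and at -0.21 and -0.22 in SW620, and FOSL1 at -0.25 and -0.23 against 1.13 and 1.26.

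The responses of the lines were then compared in 1 fit of all 24 libraries. The NIF dose given to each line was not in the sources used here, so the exposures may not be equal. In ALDHbr cells the response was higher in SW620 for FOSL1 (log2 difference of responses 1.38 ± 0.18, adjusted p = 2.85e-06), DUSP1 (0.96 ± 0.12), JUN (0.90 ± 0.18) and FOSL2 (0.50 ± 0.12), 4 of 10 members where 12.4% of all genes were called in this direction. It was lower in SW620 for FOS (-1.16 ± 0.37, adjusted p = 0.0226), 1 of 10 where 10.7% of genes were. Without SUM159 NIF replicate 1 or 2, SUM159 DMSO replicate 3 or SW620 NIF replicate 1 the call of FOS was lost (-1.12 to -0.88), whereas with the replicate block its adjusted p was 0.000603 and JUNB also passed (0.37 ± 0.11).

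In ALDHneg cells the response was higher in SW620 for 6 members, where 11.9% of all genes were: FOSL1 (1.50 ± 0.18), DUSP1 (1.21 ± 0.12), JUN (0.94 ± 0.18), JUNB (0.69 ± 0.15), JUND (0.49 ± 0.13) and FOSL2 (0.43 ± 0.11). Total-count scaling moved the share of higher genes among all called in this comparison from 53.3% to 40.9%. FOS had a difference of -0.98 ± 0.37 (adjusted p = 0.0569) without the block and passed with it (-0.95 ± 0.22, adjusted p = 0.00289), in a fit that called 12.4% of all genes lower. EGR1, FOSB and IER2 rose in both lines, and their responses were not shown to differ between lines: in ALDHbr cells the differences were 0.03 ± 0.38, 0.02 ± 0.46 and 0.04 ± 0.21, and with the block 0.04 ± 0.14, 0.03 ± 0.21 and 0.04 ± 0.10. In ALDHneg cells they were -0.14 ± 0.38, 0.29 ± 0.48 and 0.15 ± 0.21, and with the block -0.10 ± 0.14, 0.27 ± 0.23 and 0.14 ± 0.10.

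The sorted fractions were also compared under DMSO. In SW620 5 members were higher in ALDHbr than in ALDHneg cells and none was lower, where 5.45% of all genes were called higher. FOSB led, with 10.6, 10.7 and 12.2 CPM in ALDHbr and 5.10, 4.54 and 4.79 CPM in ALDHneg cells, groups that lay far apart (log2 difference 1.21 ± 0.09, adjusted p = 3.76e-06). DUSP1 (0.48 ± 0.11), JUN (0.43 ± 0.05), JUND (0.38 ± 0.09) and FOS (0.33 ± 0.09) followed, none with overlapping groups. EGR1 had a log2 difference of -0.18 ± 0.06 (adjusted p = 0.0535). The count was 2 without ALDHbr replicate 1, ALDHneg replicate 1 or ALDHneg replicate 2, 3 without ALDHbr replicate 3, 8 without ALDHbr replicate 2 and 5 without ALDHneg replicate 3, and FOSB and JUN passed in all 6 of these fits.

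In SUM159 0 of 10 members passed between the fractions without the block, where 23.0% of all genes did; 2 members had an unadjusted p under 0.05, and DESeq2 called 1. JUNB came closest, with 131, 134 and 109 CPM in ALDHbr and 106, 108 and 82.2 CPM in ALDHneg replicates 1, 2 and 3 (log2 difference 0.33 ± 0.12, adjusted p = 0.0503). With the block 1 member, JUNB, was higher (0.34 ± 0.06, adjusted p = 8.77e-05), where 17.9% of genes were. A further 5 were lower, where 18.2% were: FOSB (-0.38 ± 0.14), FOSL1 (-0.21 ± 0.05), JUN (-0.20 ± 0.06), JUND (-0.18 ± 0.06) and DUSP1 (-0.16 ± 0.05). The blocked count was 3, 8 and 2 without replicate 1, 2 and 3, where 3930 of 14822, 4655 of 15300 and 3997 of 14975 genes tested were called. JUNB was called each time. FOSB, JUN, JUND and DUSP1 therefore had opposite signs between fractions in the 2 lines; the difference between the lines in this comparison was not tested.

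No member was shown to respond to NIF differently in ALDHbr and ALDHneg cells. In SUM159 the differences of responses (ALDHbr minus ALDHneg) ran from -0.09 ± 0.09 for DUSP1 to 0.22 ± 0.16 for JUNB; 0 members and 0% of all genes passed the edgeR test, 0 members had an unadjusted p under 0.05 without the block, and DESeq2 called 0 members. With the replicate block 0 members passed, where 0.0401% of all genes did; JUNB (0.22 ± 0.08, adjusted p = 0.988) was the member with an unadjusted p under 0.05, and the SE over members ran up to 0.22 (FOS). In SW620 they ran from -0.33 ± 0.15 for DUSP1 (adjusted p = 0.900) to 0.11 ± 0.08 for EGR1; 0 members passed edgeR or DESeq2, where 0.00717% of all genes passed edgeR, and FOSB and DUSP1 had an unadjusted p under 0.05.

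Other immediate early genes gave a similar picture in SW620. Of 27 tested, 22 rose and 1 fell in ALDHbr cells, where the median log2 fold change was 0.66, and 22 rose and 2 fell in ALDHneg cells, where it was 0.74 (-0.01 over all genes in each). The largest increases were those of KLF4 (1.39 and 1.58), a Kruppel-like factor, and PPP1R15A (1.29 and 1.63), the GADD34 subunit that reverses the phosphorylation of eIF2alpha, and BTG2, an antiproliferative gene, fell (-0.97 and -0.82), as did NFKBIZ in ALDHneg cells (-0.40). In SUM159 NR4A1, an orphan nuclear receptor, rose by 0.41 in each fraction and KLF2 by 1.18 in ALDHbr cells, the only called genes of 30 without the block. With the block 12 rose and 4 fell in ALDHbr and 7 rose and 3 fell in ALDHneg cells, with medians of 0.20 and 0.11. Beside these counts and those of the lists below stand the shares of all genes tested. In SW620 21.4% rose and 21.9% fell in ALDHbr cells, and 22.3% and 22.7% in ALDHneg cells. In SUM159 without the block 0.936% rose and 2.23% fell in ALDHbr cells, and 1.10% and 2.20% in ALDHneg cells. With the block the SUM159 shares were 5.77% and 7.56% in ALDHbr, and 6.10% and 7.08% in ALDHneg cells.

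Other factors that pair with FOS or JUN proteins rose in SW620 as well, 7 of 12 in each fraction with BATF2 falling (-1.73 and -1.13). JDP2, a repressor of AP-1, rose by 1.66 and 1.54. In SUM159 0 of 13 were called in either fraction without the block, where 3.16% (ALDHbr) and 3.3% (ALDHneg) of all genes were. With the block 3 rose and none fell in ALDHbr and 6 rose and 1 fell in ALDHneg cells. For 7 serum response and ternary complex factors and their co-activators the median log2 fold change was 0.07 and 0.02 in SW620, and 3 rose in ALDHbr and 2 in ALDHneg cells, where 21.4% and 22.3% of all genes did, ELK3 (0.69 and 0.74) and SRF (0.41 and 0.45) in each; none was called in SUM159 without the block.

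The feedback regulators of MAP kinases besides DUSP1 rose in SW620, 11 of 16 in ALDHbr and 12 of 16 in ALDHneg cells, with 1 falling in each (SPRY1, an inhibitor of receptor signalling, -0.76 and -0.91). The largest increase was that of DUSP5, the nuclear ERK phosphatase, which went from 9.69 ± 0.620 to 67.9 ± 2.72 CPM in ALDHbr (log2 fold change 2.81 ± 0.08) and from 11.9 ± 1.41 to 103 ± 4.05 CPM in ALDHneg cells (3.12 ± 0.08). ERRFI1, the feedback inhibitor of EGFR, rose by 1.52 in ALDHbr cells and DUSP10, a phosphatase of p38 and JNK, by 1.86 in ALDHneg cells. In SUM159 2 rose and none fell in ALDHbr and 3 rose and 1 fell in ALDHneg cells without the block (DUSP2 0.53 and 0.36, ERRFI1 0.28 in ALDHbr, DUSP5 0.69 in ALDHneg, SPRY2 -0.50 in ALDHneg), and 3 and 1 and 7 and 1 with it.

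Among the ligands and receptors upstream of these kinases, calls were mostly increases in SW620 and decreases in SUM159. In SW620 ALDHbr cells 8 of 11 rose and 2 fell, led by EGF (1.34) and HBEGF (1.18), and in ALDHneg cells 7 rose and 2 fell, led by HBEGF (1.69) and EGF (1.36); FGFR2 (-0.66 and -0.77) and ERBB2 (-0.14 and -0.27) fell. In SUM159 ALDHbr cells none of 13 rose and 4 fell, the EGFR ligands EPGN (-1.87) and EREG (-1.54) most, and in ALDHneg cells EREG fell (-0.75) as the only call without the block. With the block 5 fell in ALDHbr, and 2 rose and 4 fell in ALDHneg cells. EREG rose in SW620 (0.53 and 0.38), and its responses differed between the lines (SW620 minus SUM159, 2.06 ± 0.19, adjusted p = 3.40e-08, in ALDHbr and 1.13 ± 0.20, adjusted p = 0.000127, in ALDHneg cells).

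Known targets of AP-1 gave mostly increases in SW620 and only decreases in SUM159 without the block. In SW620 10 of 15 rose and 1 fell in each fraction, with medians of 0.99 and 1.33: SPP1 (osteopontin) rose by 3.30 and 4.28, PLAU (urokinase) rose by 2.10 in ALDHneg cells, and CD44 fell (-0.47 and -0.57). In SUM159 none of 16 rose, and 3 fell in ALDHbr and 4 in ALDHneg cells, with medians of -0.03 and 0.01: MMP1, an interstitial collagenase (-3.20 and -2.57), PLAU (-1.37 and -1.45), CXCL8 (interleukin 8, -0.94 and -1.41), and IL6 in ALDHneg cells (-1.39). With the block 2 rose and 4 fell, and 5 rose and 4 fell.

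PLAU moved in opposite directions: it fell from 45.0 ± 5.12 to 17.4 ± 2.42 CPM in SUM159 ALDHbr cells and rose from 4.31 ± 0.353 to 19.5 ± 0.961 CPM in SW620 ALDHbr cells. The difference of these responses was 3.54 ± 0.19 (SW620 minus SUM159, adjusted p = 2.54e-12) in ALDHbr and 3.56 ± 0.17 (adjusted p = 4.20e-13) in ALDHneg cells. FOSL1 and PLAU thus both rose in SW620 and both fell in SUM159 (FOSL1 with the block). FOS had the reverse signs, but it was not called in SW620 without the block. PLAU was named after its values were seen, and other targets did not all move with FOSL1. With the block 5 of 16 targets rose and 4 fell in SUM159 ALDHneg cells, MMP3 (0.80) among those that rose. CD44 fell in SW620, where 10 of 15 targets rose in each fraction. The lists come from general knowledge and were chosen with earlier results of these data known, so their counts describe these genes and are no independent evidence about AP-1 activity.

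**Figure D5:**
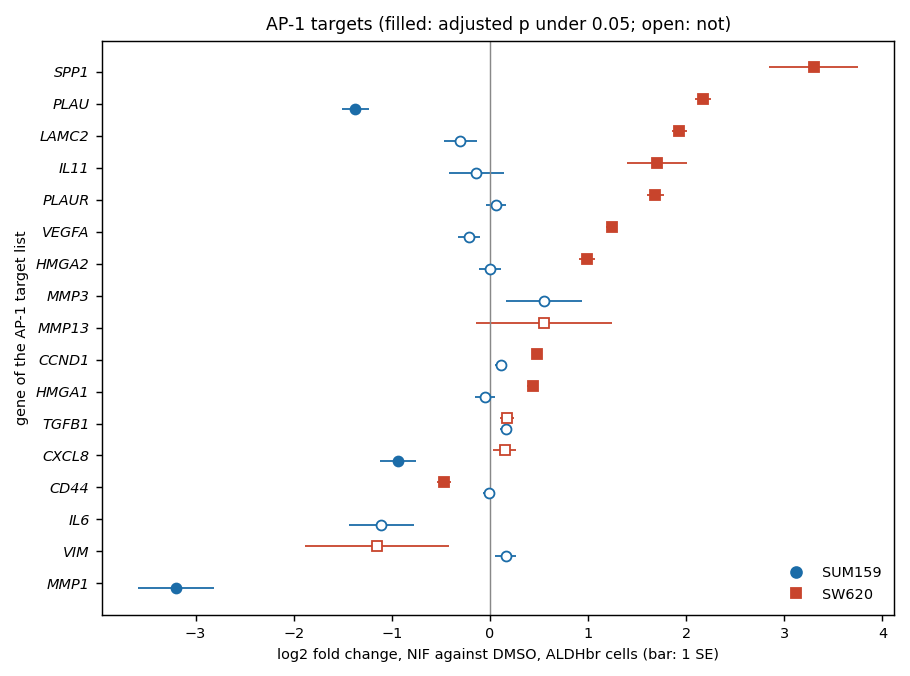
Log2 fold change (NIF against DMSO in ALDHbr cells, no block, bar: 1 SE) of AP-1 target genes tested in SUM159 (circles) or SW620 (squares); filled points have an adjusted p under 0.05. PLAU stands at -1.37 in SUM159 and 2.17 in SW620, MMP1 at -3.20 in SUM159, and SPP1 at 3.30 in SW620.

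The genes outside the 10 members whose log2 CPM followed FOS most closely over the 12 libraries of a line were different in the 2 lines. In SUM159 they were HSPA2 (r = 0.93), PMAIP1 (0.92), ZNF665 (0.92), PIBF1 (0.92) and RND1 (0.91), among 11614 genes, and EGR1 itself reached 0.95 and IER2 0.90. In SW620 they were HLA-DMA (0.94), PDZK1IP1 (0.94), FAM118B (0.92), REEP6 (0.92) and TSPAN3 (0.92), among 11174 genes, and EGR1 stood at -0.66. In SW620 the closest relations among members were those of JUN with DUSP1 (r = 0.98) and of FOSL1 with DUSP1 (r = 0.97). These values describe 12 libraries that share groups and, in SUM159, replicate numbers.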

How the data were processed

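Total RNA was sequenced from sorted SUM159 and SW620 cells, 3 libraries for each of 8 groups, and the deposited values are raw read counts per gene, made by the authors. Their processing notes name STAR, FastQC and GRCh38; the counting program and annotation are not given in the sources used here. Of 28307 genes, 4579 had no count. Genes were filtered with filterByExpr, scaled by TMM and tested with the quasi-likelihood test of edgeR 4.0.16 (R 4.3.3) with Benjamini-Hochberg adjustment at 0.05. Each line was fitted apart on its 12 libraries, and all 24 were fitted together to compare the lines. Log2 fold changes are given ± SE. CPM use TMM library sizes, and log2 CPM a prior count of 2. Levels per kilobase divide by the length of 1 canonical transcript per gene. DESeq2 1.42.0, other scalings and filters, left-out libraries and the replicate number as a block were alternatives. In SUM159, same-numbered libraries of different groups deviated together (r from 0.13 to 0.45, all 18 pairs over 0.1), so blocked values stand beside the results they change. The pairing comes from the replicate numbers in the labels and this check. The scripts were tested on simulated data. The members and gene lists were chosen with earlier results of these data known. Lists were drawn from general knowledge; in each NIF comparison without the block the 2 highest and 2 lowest called genes of a list were named, while CXCL8 and IL6, and EREG and PLAU in the comparison of lines, were named after their values were seen. Single values of 2 list genes are not reported here, though the counts and medians of their lists include them. Genes most like FOS are the 5 with the highest Pearson r in each line among genes whose log2 CPM averaged 1 or more. P-values set each difference against the spread between these libraries. In the SUM159 fits without the block that spread includes the shared deviations of same-numbered libraries.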

Additional observations from a re-analysis of the deposited data

Results flagged for a closer look

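The results below were singled out because the response to NIF differed between the lines by a direct test of that difference (edgeR, 24 libraries, SW620 minus SUM159, log2 scale, Benjamini-Hochberg adjusted p). In ALDHbr cells these were FOSL1 (1.38, adjusted p = 2.85e-06), DUSP1 (0.96, adjusted p = 1.68e-06), JUN (0.90, adjusted p = 0.000782), FOSL2 (0.50, adjusted p = 0.00278) and, in the other direction, FOS (-1.16, adjusted p = 0.0226). In ALDHneg cells they were FOSL1 (1.50, adjusted p = 7.36e-07), DUSP1 (1.21, adjusted p = 6.14e-08), JUN (0.94, adjusted p = 0.000455), JUNB (0.69, adjusted p = 0.00155), JUND (0.49, adjusted p = 0.00852) and FOSL2 (0.43, adjusted p = 0.00728). The lines also differ in tissue of origin and in the spread between replicates of FOS, FOSB and EGR1. The paper lists drug concentrations by cell line, but the NIF dose of these libraries was not in the sources used here, so it may differ too. The part of each in these differences was not tested.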

How the results depend on the processing

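Of 40 member results called without the block, set against 543 alternative fits of them, 516 kept their direction and their call, 27 lost the call and 0 reversed. This tally holds 1 response to NIF in SUM159 (DUSP1 in ALDHneg cells). The calls that SUM159 gained with the block are not in it. Members called between NIF and DMSO in SUM159 ALDHbr cells numbered 0, but 1 by DESeq2, 1 with no filter on low counts and 8 with the replicate block; leaving out 1 library gave 0 to 1, and the block without replicate 1, 2 or 3 gave 5, 6 and 6 (chosen after seeing the data, as are the other fits of this kind). In SUM159 ALDHneg cells the count was 1, but 2 with no filter and 7 with the block, 0 to 1 with a library left out, and 3, 8 and 6 with the block and a number left out. Between the SUM159 fractions it was 0, but 1 by DESeq2, 1 by RLE size factors, 1 with no filter and 6 with the block, 0 to 1 with a library left out, and 3, 8 and 2 with the block and a number left out. Between the SW620 fractions it ranged from 2 to 8 with a library left out. In SW620, same-numbered libraries had correlations from -0.28 to 0.21 (1 of 18 over 0.1), so they share only a number. The block called 10 members in ALDHneg cells, FOS among them as lower (-0.22, adjusted p = 0.0450). For the differences between lines the block gave 6 and 7. The block was not fitted to the levels of SUM159 against SW620.

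Reversals were limited to members that were not called in the main fit. EGR1 between the SUM159 fractions, reversed with the block without replicate 2, was called lower in that fit. EGR1 between the SUM159 fractions gave -0.032 by library-size scaling, -0.0060 with at least 10 counts in every library, -0.038 with the replicate block and -0.22 with the block without replicate 2, and FOS gave 0.046 with the block without replicate 3. With a library left out the ranges crossed 0 for JUN (-0.079 to 0.22) and JUNB (-0.033 to 0.11) under NIF in SUM159 ALDHbr cells, JUN in SUM159 ALDHneg cells (-0.011 to 0.25), JUND in SW620 ALDHbr cells (-0.017 to 0.14), EGR1 (-0.22 to 0.28), FOS (-0.36 to 0.14) and IER2 (-0.11 to 0.20) between the SUM159 fractions, JUNB between the SW620 fractions (-0.0032 to 0.13), EGR1 (-0.25 to 0.32), FOSB (-0.37 to 0.35) and IER2 (-0.10 to 0.21) in the difference between lines in ALDHbr cells, and EGR1 in ALDHneg cells (-0.38 to 0.18). The cause was not tested.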
